A study of Saccharomyces cerevisiae with 6 samples.

Results

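Transcript levels were compared between budding yeast (Saccharomyces cerevisiae) lacking ASK10 and yeast with the wild-type gene, to see what the loss of the gene does to expression. The comparison set deletion replicate 2, the deletion library with columns, against WT replicates 1 and 2, which is 3 of the 6 samples of the series. It covered all 6032 genes listed in any library, of which 3939 had at least 10 counts summed over the 3 libraries and were tested. The remaining 2093 were too sparse to test and enter only sums and single values. Cells of the deletion strain (ask10 del in the labels) and of the WT strain were both grown in Sc-ura, a synthetic medium without uracil, with 20 g/l glucose. A strain carrying the ASK10 M475R allele, grown in the same medium, completed the study, and its libraries served to estimate the spread and are given beside some results. How ASK10 was removed, which marker replaced it and whether the strains carried plasmids are not given in the sources used here. Nothing in the labels says that replicates came from separate cultures, and deletion replicate 1 was not analysed here.

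Ask10, also called Rgc2, is a regulator of Fps1, the plasma membrane channel through which yeast releases glycerol. Together with its paralog Rgc1 it binds Fps1 and helps to open it, and phosphorylation by the stress kinases Hog1 and Slt2 alters that binding. Ask10 has also been linked to the response regulator Skn7 and to the destruction of cyclin C (Ssn8) under oxidative stress, so it sits where osmotic, cell wall and oxidative stress signalling meet.

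The libraries were shallow. The deletion library held 117689 counts, and WT replicates 1 and 2 held 102618 and 51584. The detection floor was set at 3 counts, or 26.6 CPM (counts scaled to the library size after TMM) in the deletion library and 30.5 and 60.3 CPM in the WT libraries. The WT libraries differed from each other by no more than sampling noise (chi-square 1.004 per degree of freedom over 2001 genes, p = 0.442) and were therefore counted as 1 sample. The deletion library differed from the WT libraries beyond that noise, with chi-square values per degree of freedom of 1.397 (replicate 1, 3377 genes) and 1.373 (replicate 2, 1981 genes). With 1 sample of each strain, the p-values below compare these libraries and not the strains, and a bulk measurement cannot tell fewer cells of a kind from less RNA per cell. All intervals reflect counting error alone, with no term for spread between samples. PCR duplicates, where present, inflate the number of reads, so the intervals may be too narrow.

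ASK10 (YGR097W, chromosome VII) had 0 counts in the deletion library, against 5 and 7 counts in the WT libraries (50.9 and 141 CPM). The M475R libraries held 567 and 4. The deletion library was below both WT libraries, and the exact 95% interval of the ratio of deletion to WT ran from 0 to 0.473. ASK10 had the highest pooled WT count among the 703 listed genes with 0 counts in the deletion library. It did not pass the test across all genes (edgeR quasi-likelihood test, Benjamini-Hochberg adjusted p = 0.256), though it did so with edgeR's own count filter (adjusted p = 0.0397), so at this depth the label is checked by the absence of reads rather than by the call. Of the 5 listed genes on either side of ASK10, TPC1 was too sparse to test and the others were not called. Ratios of these neighbours ran from 0.131 for GTF1 (1 count in the deletion library, against 7 and 3) to 1.86 for DBF2 (17, against 8 and 4). Next to ASK10, the mitochondrial thiamine pyrophosphate carrier gene TPC1 had 1 count in the deletion library and 0 and 1 in WT, and the separase gene ESP1 had 9, against 10 and 6. The best counted neighbour was the valyl-tRNA synthetase gene VAS1, with 109 counts in the deletion library and 138 and 61 in WT (ratio 0.719, interval 0.564 to 0.913, adjusted p = 0.483).

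The direct partners of Ask10 were not called either, and few reads covered them. FPS1, the glycerol channel gene, had 31 counts in the deletion library and 11 and 8 in WT. It lay above both WT libraries, with a ratio of 2.14 (interval 1.17 to 4.01, adjusted p = 0.483), and it belongs to a stretch of chromosome XII that is described further on. The paralog gene RGC1 had 14 counts in the deletion library, against 5 and 6, a ratio of 1.67 (0.705 to 4.07, adjusted p = 0.811). SKN7 had 14 counts in the deletion library, against 17 and 9. The cell wall MAP kinase gene SLT2 had 13, against 4 and 5, and SSN8, at 3 counts against 1 and 2, was too sparse to test.

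Over the genes with enough counts to test, the deletion and WT profiles were close. The log2 CPM values of the deletion library and of the pooled WT libraries had a Pearson correlation of 0.885. That value covers the 3937 tested genes above 0 in both and leaves out the 2093 sparser genes. The glycolytic gene TDH3 had the highest FPKM (the authors' length-scaled level) in the deletion library, at 16435, against 14763 and 14080 in WT. The cell wall protein gene CCW12 followed at 14496, against 15500 and 14163, and the aldolase gene FBA1 at 12760, against 11885 and 12174. Of the 50 genes with the highest FPKM in the deletion library, 42 were also among the 50 highest in WT. Tested genes had a median log2 fold change of -0.004, with 1963 genes above and 1976 below WT.

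Between the deletion and WT, 12 of 3939 genes (0.305%) were called at an adjusted p under 0.05, 8 higher (0.203%) and 4 lower (0.102%). All 12 lay outside both WT libraries, but so did 2548 of the tested genes (64.7%), so that alone sets nothing apart. At an unadjusted p under 0.05 there were 150 higher and 143 lower genes. These calls rest on a spread borrowed from the M475R pair as well as the WT pair, and leaving out either or both M475R libraries left 0 calls (without both, smallest adjusted p 0.875 and 195 genes at an unadjusted p under 0.05), while an exact binomial test of the pooled counts called 22. That test added AHP1, ENO1, PDC1, RFA1, TDH3, THI7, VPS13, YCR013C, ZPS1 and ZRT1 to the 12. With edgeR's own count filter, 20 genes were called, and AHP1, ASK10, ENO1, RFA1, THI7, VPS13, YCR013C and ZPS1 were the additions. The scatter of deletion against WT levels shows how few genes leave the diagonal.

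**Figure D1:**
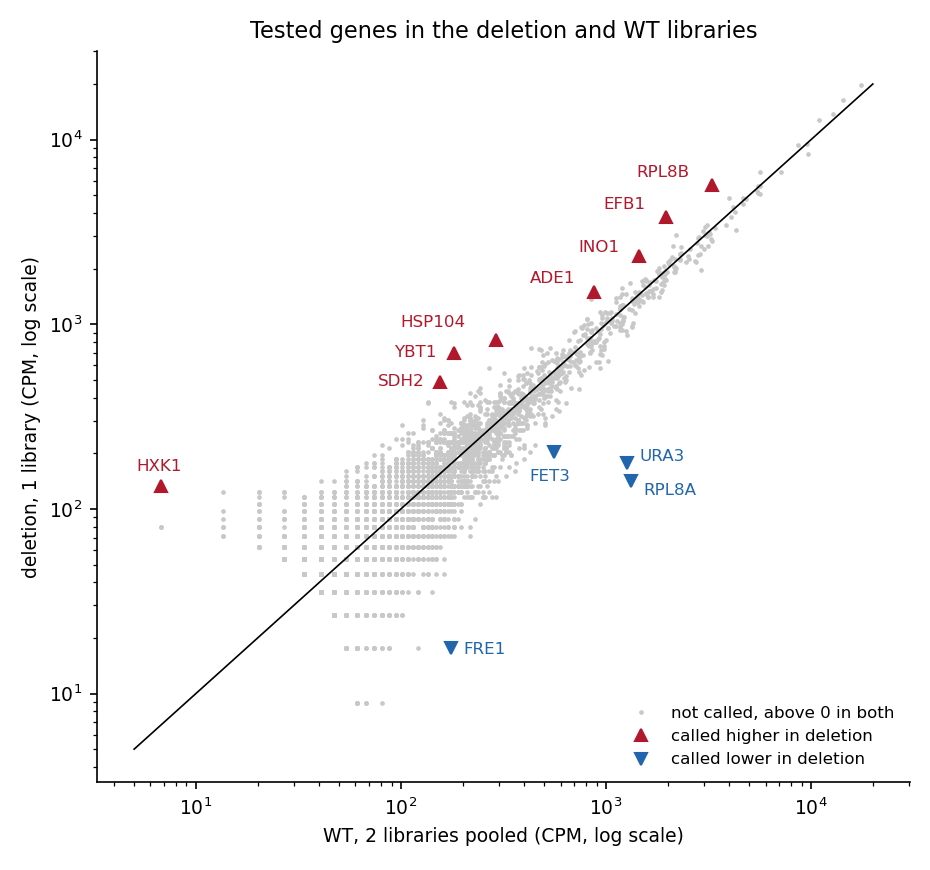
Level of each tested gene in the deletion library (vertical, CPM, log scale) against the pooled WT libraries (horizontal, CPM, log scale), for genes above 0 in both. The line marks equal levels, and the 8 genes called higher (red, upward) and 4 called lower (blue, downward) are named, while most grey points spread around the line, widest below about 100 CPM.

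The lower calls with the smallest adjusted p were RPL8A and URA3, which were called under every alternative that called any gene. RPL8A encodes a protein of the large ribosomal subunit and had 16 counts in the deletion library, against 135 and 61 in WT. The deletion library was far below both, with a ratio of 0.107 (interval 0.0601 to 0.179) and a log2 fold change of -3.22 ± 0.29 SE (adjusted p = 7.05e-09). In the M475R libraries RPL8A stood at 0.752 times WT (0.652 to 0.873).

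RPL8A has a near-identical copy, RPL8B, and the copies went opposite ways. RPL8B had 639 counts in the deletion library, against 330 and 155 in WT, and was called higher (ratio 1.73, interval 1.54 to 1.95, adjusted p = 6.92e-06). It belongs to the stretch of chromosome XII described further on, whose 20 listed genes, RPL8B among them, summed to 1.90 times WT. RPL8A supplied 2.44% of the counts of the 2 genes in the deletion library (exact binomial interval 1.40% to 3.94%, 655 counts). Its share was 31.7% and 35.5% in the M475R libraries and 29.0% and 28.2% in the WT libraries, so the deletion library stood apart from the other 4. Summed over both copies, the ratio of deletion to WT was 1.26 (1.13 to 1.41). How the authors assigned reads that match both copies is not given in the sources used here, so the level of either copy is uncertain, and the part of read assignment in the split was not tested. Near RPL8A on chromosome VIII, SBP1 and GOS1 were not called: SBP1 had 33 counts in the deletion library, against 37 and 21, and GOS1 had 11, against 0 and 4.

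URA3, which encodes orotidine-5'-phosphate decarboxylase of uracil synthesis and is widely used as a selection marker, had 20 counts in the deletion library. The WT libraries held 116 and 72. URA3 fell to 0.140 times WT (interval 0.0834 to 0.222), a log2 fold change of -2.84 ± 0.29 SE (adjusted p = 7.75e-08), with the deletion library below both, whereas the M475R libraries stood at 1.02 times WT (0.881 to 1.19). In the deposited FPKM it was 226 in the deletion library and 1505 and 1856 in WT. The gene carries a function that cells need in this medium, and all strains were grown in it. Its neighbours on chromosome V, GEA2 (17 counts, against 11 and 5) and TIM9 (7 counts, against 11 and 1), were not called. Of the other 6 marker genes listed, 5 were tested and 0 called. TRP1 had 7 counts in the deletion library, against 6 and 3, HIS3 had 9, against 8 and 6, and LYS2 had 30, against 28 and 16. LEU2 had 4, against 1 and 2, too few to test. The ratios of ADE2 (0.619, interval 0.453 to 0.837) and MET17 (0.705, 0.400 to 1.21) were below 1.

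The other lower calls were FRE1 and FET3, of high-affinity iron uptake. FRE1, a ferric reductase of the plasma membrane, had 2 counts in the deletion library, against 16 and 10 in WT (ratio 0.101, interval 0.0116 to 0.403, adjusted p = 0.0422). FET3, the multicopper ferroxidase, had 23 counts in the deletion library, against 49 and 34 (ratio 0.364, 0.219 to 0.583, adjusted p = 0.0216). Both lay below both WT libraries. FTR1, the permease that works with Fet3, had 39 counts, against 51 and 33, a ratio of 0.610 (0.406 to 0.902) that did not pass (adjusted p = 0.534). Without WT replicate 2 both calls were lost (adjusted p = 0.0693 each), and that of FRE1 was also lost without WT replicate 1 (0.11).

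The highest ratio among called genes was that of HXK1, hexokinase isoenzyme 1, a gene that is repressed in glucose-grown cells. It had 15 counts in the deletion library and 0 and 1 in WT, so it passed the count filter through the deletion library. The ratio of 19.7 therefore has an interval from 3.03 to 829, and the call was marginal (adjusted p = 0.0488) and lost without WT replicate 1 (0.675). The M475R libraries also lay above this WT sample, at 11.9 times WT (2.12 to 471). The same WT count of 1 stands under both ratios.

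YBT1, a transporter of the vacuolar membrane, had 79 counts in the deletion library and 17 and 10 in WT. It was 3.84-fold higher (interval 2.45 to 6.19), a log2 fold change of 1.94 ± 0.29 SE (adjusted p = 1.0e-04). SDH2, the iron-sulfur subunit of succinate dehydrogenase, had 55 counts in the deletion library and 13 and 10 in WT (ratio 3.14, 1.90 to 5.35, adjusted p = 0.0229). It was not called when WT replicate 1 was left out (0.432). HSP104, the disaggregase that pulls apart aggregated proteins, had 93, against 30 and 13 (2.84, 1.96 to 4.18, adjusted p = 6.32e-04).

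EFB1, the exchange factor of translation elongation factor 1, had 430 counts in the deletion library and 194 and 95 in WT. It was 1.95-fold higher (interval 1.68 to 2.28, adjusted p = 4.82e-06). ADE1, an enzyme of purine synthesis, had 169 counts in the deletion library, against 88 and 42 (ratio 1.71, 1.35 to 2.16, adjusted p = 0.0216). INO1, which makes inositol phosphate from glucose 6-phosphate, had 263, against 138 and 77 (1.61, 1.34 to 1.93, adjusted p = 0.0203). For each of these the deletion library was above both WT libraries. ADE1 and INO1 were not called when WT replicate 1 was left out (adjusted p = 0.203 and 0.309). The plot of called genes by library shows the counting interval of each value.

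**Figure D2:**
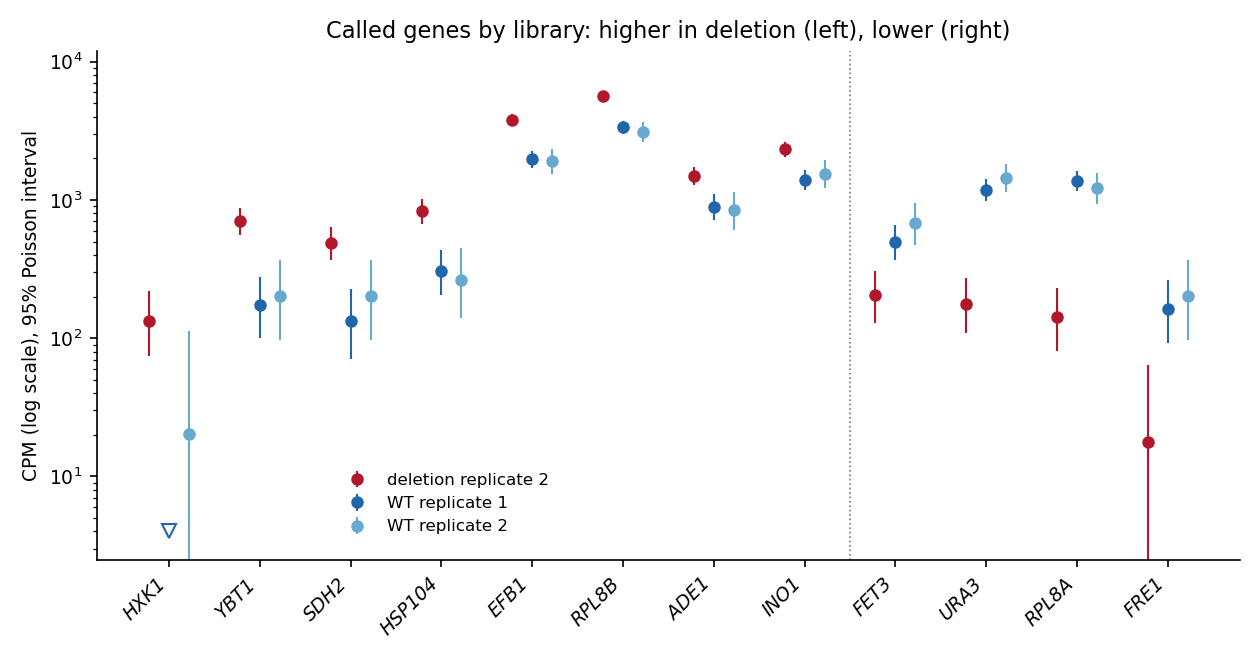
CPM (log scale) of the 12 called genes in deletion replicate 2 and in WT replicates 1 and 2, with exact 95% Poisson intervals as bars. The 8 genes called higher stand left of the dotted line and the 4 called lower right of it. The open triangle marks the 0 counts of HXK1 in WT replicate 1, and a bar reaching the lower edge continues below it.

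The M475R libraries offered a further look at the called genes, although the deletion library is the same one and the test adds no deletion replicate. Against M475R, 240 of the 3939 genes (6.09%) were called, 156 higher and 84 lower in the deletion. Of the 12 genes called against WT, 9 were also called against M475R in the same direction. The others were HXK1 (adjusted p = 0.403), FRE1 (0.0737) and FET3 (0.0583). For SDH2, EFB1, RPL8B, ADE1 and INO1 the deletion and M475R lay on opposite sides of the shared WT sample. The ratios to WT were 1.71 in the deletion and 0.185 in M475R for ADE1, and 3.14 and 0.708 for SDH2. The M475R interval of SDH2 (0.466 to 1.13) included 1. HXK1, YBT1, HSP104, RPL8A, FRE1 and FET3 lay on the same side of WT in both. In M475R the ratio was 1.89 (1.40 to 2.63) for HSP104, 0.478 (0.321 to 0.742) for FRE1 and 0.657 (0.527 to 0.830) for FET3. Whether these shifts were shared by both strains or lay in the WT sample was not tested.

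Most of the genes called higher lay near each other on chromosomes. In gene order taken from the reference assembly R64, YBT1, RPL8B and SDH2 are among the 20 outermost listed genes at the left end of chromosome XII, and EFB1 and ADE1 among the last 20 listed genes of chromosome I. That is 5 of the 8 genes called higher, and HSP104 lies a little further in on chromosome XII, among the outermost 40. The order in the strain studied may differ from that of R64. These stretches were singled out after the values had been seen, and the calls are part of what singled them out, so what follows is a description.

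At the left end of chromosome XII, the 20 listed genes summed to 1085 counts in the deletion library, against 501 and 248 in WT. The summed ratio was 1.90 (interval 1.73 to 2.09), and it was 1.89 over WT replicate 1 and 1.93 over WT replicate 2. Of the 20 genes, 12 were tested and all 12 lay above WT, with a median log2 fold change of 0.98. Among all 20, the sparse ones included, 18 lay above and 1 below pooled WT. The M475R libraries summed to 0.757 times WT there.

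Most single genes of that end did not pass. AQY2, a water channel gene, had 33 counts in the deletion library and 17 and 9 in WT, and YLL053C beside it had 43, against 20 and 6. COF1, the actin-severing protein cofilin, had 83, against 45 and 25 (ratio 1.56, interval 1.12 to 2.17, adjusted p = 0.455). VPS13, which transfers lipid between membranes, had 43, against 14 and 6 (2.82, 1.63 to 5.07, adjusted p = 0.0716). The counts of FPS1 given above belong to this stretch, and so do those of the ferric reductase gene FRE6, at 20 in the deletion library and 10 and 4 in WT (1.88, 0.901 to 4.01). Further in, GPI13, of GPI anchor synthesis, had 32, against 11 and 4. With the 40 outermost genes the summed ratio was 1.74 (1.61 to 1.88) over 29 tested genes, of which 4 were called higher.

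At the right end of chromosome I, 16 of the last 20 listed genes were tested. They reach past the centromere, since this chromosome has few genes. Of the 16, 14 lay above WT, with a median log2 fold change of 0.79. The 20 genes summed to 864 counts in the deletion library and 411 and 208 in WT, a ratio of 1.83 (interval 1.65 to 2.04) that was 1.83 over either WT library. The M475R libraries summed to 0.763 times WT.

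Besides EFB1 and ADE1, the best counted genes there were ERP1, NUP60 and RFA1. ERP1, of vesicle transport from the endoplasmic reticulum, had 48 counts in the deletion library and 21 and 15 in WT (ratio 1.75, interval 1.11 to 2.78, adjusted p = 0.529). The nuclear pore gene NUP60 had 34, against 13 and 11 (1.86, 1.07 to 3.28). RFA1, the large subunit of the single-stranded DNA binding protein RPA, had 42, against 12 and 8 (2.76, 1.58 to 4.96, adjusted p = 0.0851). All lay above both WT libraries.

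No other chromosome end was close. Ranked by the median of their tested genes, chromosome XII left and chromosome I right came 1 and 2 of 32 ends, and the next, chromosome XIII left, had a median of 0.28. Over the other 30 ends, 349 genes were tested, 1 was called higher and 1 lower, and the median was 0.006. Over positions away from all ends, 3476 genes were tested, 2 were called higher and 3 lower, and the median was -0.01. As a whole, chromosome I summed to 1.23 times WT (1.17 to 1.30), while the other chromosomes lay between 0.960 and 1.06. Gene groups with a member in these 2 stretches are therefore also given without it, the stretches being taken as the outermost 40 genes of chromosome XII left, which include HSP104, and the last 20 of chromosome I.

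**Figure D3:**
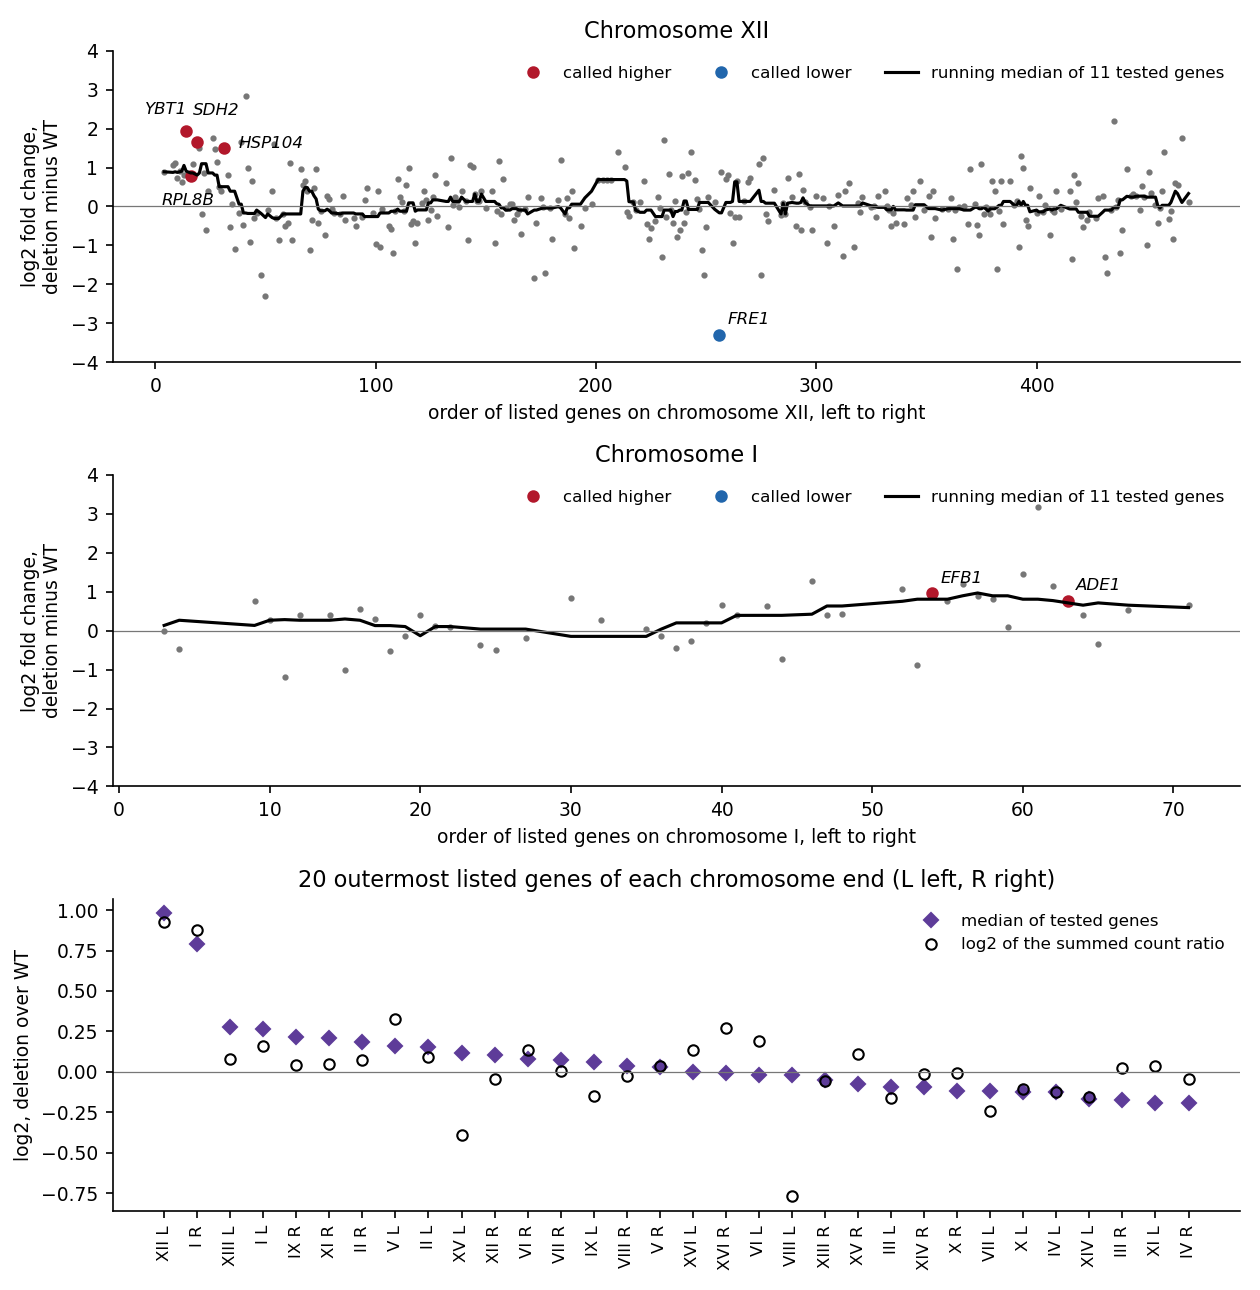
Log2 fold change of the deletion over WT along chromosomes XII (top) and I (middle), by the order of listed genes, with a running median over 11 tested genes (black line), and (bottom) the median (diamonds) and the log2 of the summed count ratio (circles) for the 20 outermost listed genes of each of 32 chromosome ends. The running median stands near 0.9 at the left of chromosome XII and between about 0.6 and 1 at the right of chromosome I, and in the bottom panel these ends have medians of 0.98 and 0.79 with the next at 0.28.

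Targets of the general stress activators Msn2 and Msn4, which respond to many stresses through stress response elements, lay mostly above WT. Of 45 listed members, 25 were tested, 2 were called higher (HXK1 and HSP104) and 0 lower. Over all tested genes 0.203% were called higher and 0.102% lower, and these shares stand beside the call counts of all lists below. The counts of all 45 summed to 474 in the deletion library and 237 and 113 in WT, a ratio of 1.78 (interval 1.55 to 2.05), and 1.63 (1.40 to 1.90) without the genes in the 2 stretches. Among the tested members, 18 lay above and 7 below WT, with a median log2 fold change of 0.98, against -0.004 over all tested genes. The filter pools deletion and WT counts, so members nearly silent in WT, such as HXK1, entered through the deletion library. Among all 45 listed members, 30 lay above and 12 below pooled WT. The M475R libraries summed to 2.13 times the same WT sample, so a shift shared by both strains and a low WT sample cannot be told apart.

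Among its members, YGP1, a secreted glycoprotein induced by nutrient limitation, had 25 counts in the deletion library and 10 and 2 in WT (ratio 2.74, interval 1.32 to 5.98, adjusted p = 0.431). PRX1, the mitochondrial peroxiredoxin, had 14, against 3 and 1 (4.60, 1.44 to 19.2), and GLK1, glucokinase, had 25, against 11 and 4 (2.19, 1.11 to 4.47). Not every well-known target lay above WT. The small membrane stress protein gene HSP12 had 5 counts in the deletion library, against 11 and 3, and the Hsp70 gene SSA4 had 5, against 6 and 5. DDR2 and SPI1 had 0 counts in the deletion library, with 2 and 3 in WT replicate 1.

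Trehalose and glycogen genes overlap with that list. None of 10 tested of 18 listed was called, while 9 lay above WT and 1 below (median 0.55), and the sums gave 1.61 (interval 1.31 to 1.99). Among all 18 listed, 14 lay above and 4 below pooled WT. M475R summed to 1.88 times the same WT sample, so the limit given for the stress list holds here too. TSL1, a subunit of trehalose synthase, had 14 counts in the deletion library, against 2 and 1 in WT, a ratio of 6.13 (1.71 to 33.3, adjusted p = 0.256) on 3 WT counts. TPS1, its catalytic subunit, had 29, against 12 and 4 (2.38, 1.25 to 4.69). TPS2 had 19, against 14 and 4 (1.39, 0.689 to 2.80).

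The groups closest to the known function of Ask10 gave 0 calls. Over all tested genes 0.305% were called, so 0 calls in lists of this size sets nothing apart. Of 18 listed genes of glycerol metabolism and osmotic stress, 14 were tested and 0 called, with a median of 0.07 and a summed ratio of 1.07 (interval 0.922 to 1.23), or 1.02 (0.873 to 1.18) without FPS1. GPD1, the glycerol-3-phosphate dehydrogenase induced by osmotic stress, had 34 counts in the deletion library and 17 and 15 in WT (1.40, 0.835 to 2.34). GPP1, of the next step, had 128, against 105 and 60 (1.02, 0.802 to 1.29), and HOG1 had 28, against 22 and 13 (1.05, 0.616 to 1.78). These intervals allow moderate change in either direction.

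Cell wall integrity kinases and their regulators gave 0 calls among 12 tested of 16, with a median of 0.21 and a summed ratio of 1.19 (0.966 to 1.45). The genes of cell wall proteins and remodelling gave 0 calls among 26 tested of 30 and summed to 0.984 (0.935 to 1.04), with 13 above and 13 below WT. KRE6, of beta-glucan synthesis, had the smallest adjusted p of that group, 0.431, with 49 counts in the deletion library and 24 and 11 in WT. Oxidative stress genes gave 0 calls among 24 tested of 32, 17 of them above WT (median 0.26, summed ratio 1.16, 1.06 to 1.26, and 1.16 again without the member in the stretches). M475R summed to 1.20 times the same WT sample, and its AHP1 level was 2.15 times WT (1.80 to 2.59). The peroxiredoxin gene AHP1 came closest, with 155 counts in the deletion library, against 85 and 40 (1.63, 1.28 to 2.08, adjusted p = 0.0873, but 0.0166 with edgeR's own filter and 0.0115 by the exact binomial test).

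Protein folding genes were near WT. HSP104 was the 1 call among 23 tested cytosolic chaperone genes, and the sum of 25 listed members was 1.09 times WT (interval 0.999 to 1.18) with it and 1.02 (0.939 to 1.12) without the 2 stretches. Mitochondrial chaperones summed to 1.05 (0.929 to 1.20) with 0 calls among 11 tested, while the M475R libraries summed to 2.09 times the same WT. The chaperonin gene HSP60 had 121 counts in the deletion library, against 80 and 39 (1.34, 1.03 to 1.73, adjusted p = 0.600). Folding genes of the endoplasmic reticulum (1.08, 0.955 to 1.23) and proteasome genes (1.06, 0.985 to 1.15) had 0 calls among 16 and 36 tested.

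Genes of ribosome biogenesis lay mostly below WT. None of 92 tested of 93 listed was called, yet 78 of the 92 lay below WT and 14 above, with a median log2 fold change of -0.35. Their counts summed to 2532 in the deletion library and to 2757 and 1416 in WT, a ratio of 0.797 (interval 0.758 to 0.837) that was 0.801 over WT replicate 1 and 0.789 over WT replicate 2. The nucleolar protein gene NSR1 had 71 counts in the deletion library, against 95 and 56 (0.617, 0.459 to 0.824, adjusted p = 0.256), and the export adapter gene NMD3 had 21, against 42 and 17 (0.467, 0.270 to 0.781, adjusted p = 0.353). M475R summed to 0.676 times the same WT sample.

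Cytosolic ribosomal protein genes were close to WT. All 128 listed were tested, and RPL8A and RPL8B were the calls, 1 lower and 1 higher. The sum was 0.951 times WT (0.935 to 0.968), or 0.939 (0.922 to 0.955) without RPL8B, and 88 members lay below WT and 40 above (median -0.08). Mitochondrial ribosomal proteins summed to 1.08 (0.977 to 1.19) with 0 calls among 64 tested. Translation factors summed to 0.994 (0.952 to 1.04) with EFB1, their 1 call among 26, and to 0.933 (0.892 to 0.976) without it.

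Genes of glycolysis and ethanol formation were slightly above WT as a group. Of 19 tested of 22 listed, HXK1 was called and 16 lay above WT, with a median of 0.16. The sums of 11757 counts in the deletion library and 9209 and 4815 in WT gave a ratio of 1.10 (interval 1.07 to 1.13). M475R summed to 1.35 times the same WT sample. ENO1, an enolase, had 1446 counts in the deletion library, against 1085 and 540 (1.17, 1.09 to 1.26), and PDC1, pyruvate decarboxylase, had 2221, against 1663 and 927 (1.13, 1.06 to 1.19). Neither passed the edgeR test (adjusted p = 0.431 and 0.615), but the exact binomial test called both, along with TDH3, and edgeR with its own filter called ENO1. ENO1 and PDC1 each have a close paralog that may share reads. Hexose transport genes gave 0 calls among 10 tested (sum 1.13, 0.972 to 1.31), and HXT6 and HXT7, near-identical copies, carried equal values in every library.

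Respiratory genes were likewise slightly above WT. Of 42 listed subunits of respiratory complexes and ATP synthase, 35 were tested, SDH2 was called higher, and 27 lay above WT (median 0.15, summed ratio 1.12, 1.04 to 1.20, or 1.09, 1.01 to 1.17, without the 2 stretches). QCR2, a core subunit of complex III, had 84 counts in the deletion library and 40 and 24 in WT (1.72, 1.23 to 2.42, adjusted p = 0.256). M475R summed to 0.584 times WT for this list. Genes of the TCA and glyoxylate cycles summed to 1.17 (1.07 to 1.29), again with SDH2 as the 1 call among 23 tested, and to 1.13 (1.02 to 1.24) without the 2 stretches. For that list M475R summed to 1.48 times WT. The mitochondrial malate dehydrogenase gene MDH1 had 34 counts, against 11 and 8 (2.35, 1.30 to 4.36, adjusted p = 0.431).

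**Figure D4:**
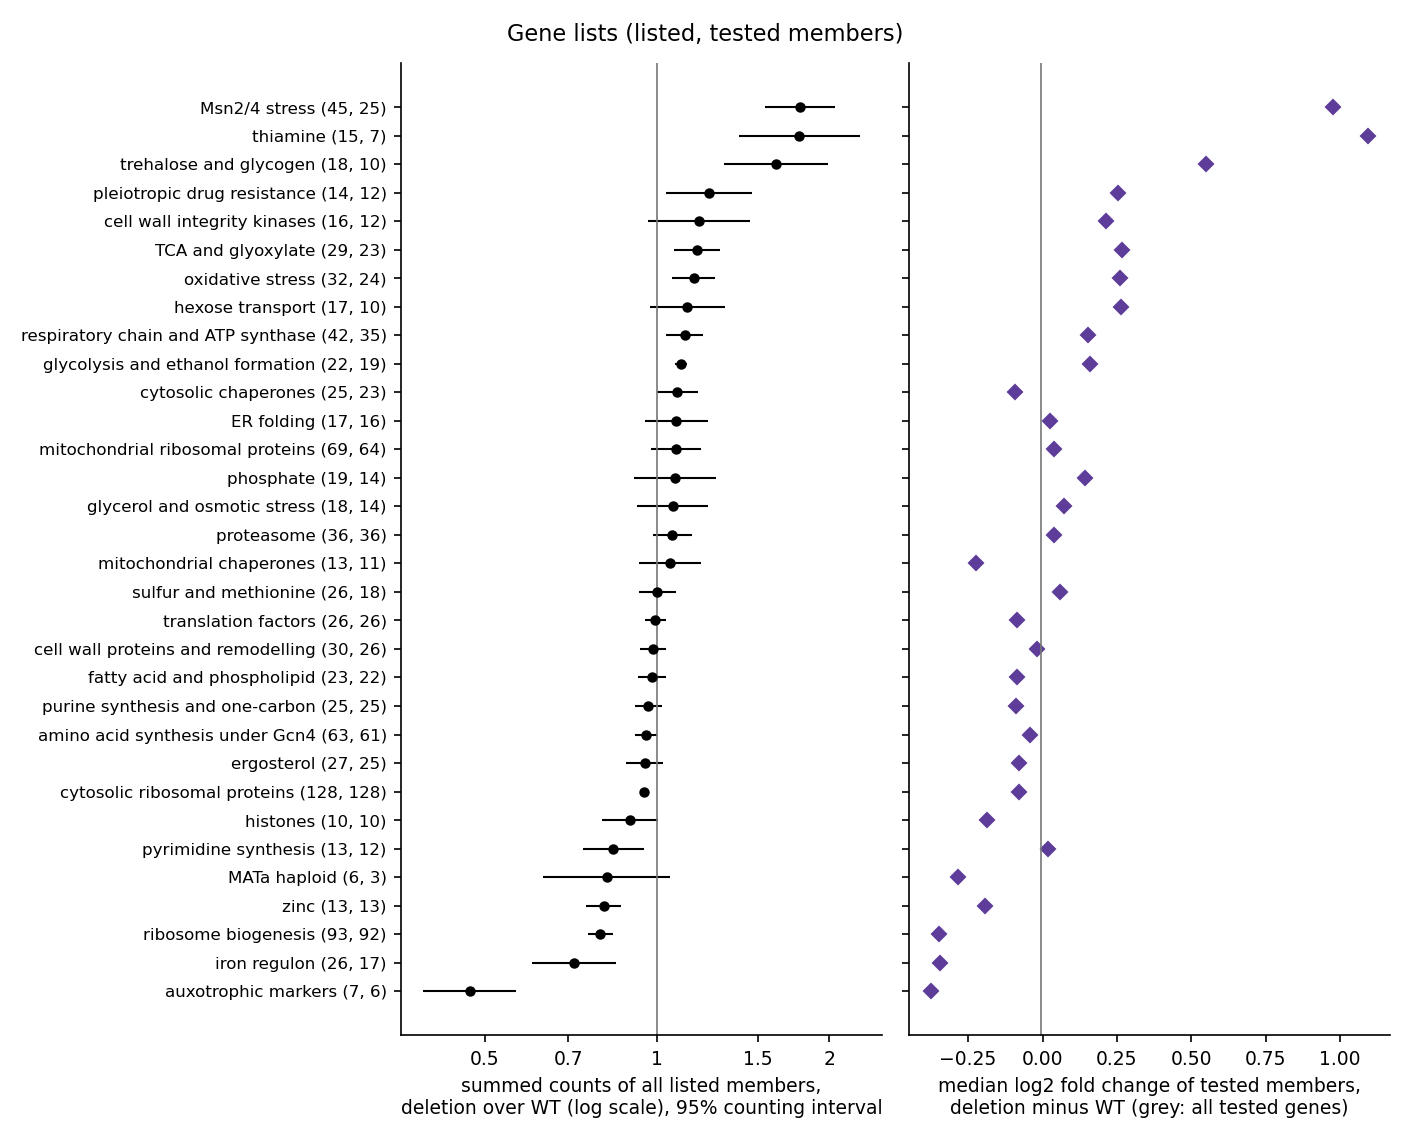
Gene lists with at least 3 tested members, ordered by the summed counts of all listed members in the deletion over WT (left, log scale, 95% counting intervals as bars), with the median log2 fold change of the tested members (right, grey line at the median of all tested genes). Numbers after each name are listed and tested members. Stress genes (1.78), thiamine genes (1.77) and trehalose and glycogen genes (1.61) stand at the top, and the iron regulon (0.717) and the auxotrophic markers (0.472, a list that holds URA3) at the bottom.

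Nutrient-responsive groups lay on both sides of WT. Thiamine genes gave 0 calls among 7 tested of 15 listed, with 5 above WT (median 1.09) and a summed ratio of 1.77 (interval 1.39 to 2.26). THI7, the thiamine transporter, had 65 counts in the deletion library and 30 and 10 in WT (2.13, 1.42 to 3.25, adjusted p = 0.127, but 0.0414 with edgeR's own filter and 0.0278 by the exact binomial test), and THI20, of thiamine synthesis, had 24, against 8 and 5 (2.42, 1.19 to 5.18). THI7 stood at 0.235 times WT in M475R, on the other side of WT.

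The iron regulon gave FRE1 and FET3 as 2 lower calls among 17 tested of 26 listed, while 0.102% of all tested genes were called lower. Of the 17, 11 lay below WT, with a median of -0.34. The sum of the iron regulon was 0.717 times WT (interval 0.604 to 0.849), and 0.674 (0.564 to 0.804) without the 2 stretches, which hold FRE6. The siderophore transporter gene ARN1 had 5 counts in the deletion library, against 7 and 6, and the iron sensor gene AFT1 had 7, against 9 and 6. Other members lay above WT on few counts, such as SIT1, a siderophore transporter, at 5, against 2 and 1.

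Zinc-responsive genes gave 0 calls among 13, with 11 below WT and 2 above (median -0.19), and summed to 0.807 (interval 0.753 to 0.866). M475R summed to 0.558 times the same WT sample, on the same side. ZPS1, a cell surface protein induced by zinc shortage, had 221 counts in the deletion library, against 260 and 171 (0.673, 0.570 to 0.794, adjusted p = 0.163). ZPS1 was called with edgeR's own filter (0.00833), with a minimum of 1 count (0.0215), without WT replicate 1 (0.000127) and by the exact binomial test (0.000653). ZRT1, the high-affinity zinc transporter, had 365, against 424 and 213 (0.752, 0.660 to 0.857, adjusted p = 0.163), and was called by the exact binomial test. Phosphate-responsive genes summed to 1.07 (0.911 to 1.27), and to 1.07 (0.902 to 1.26) without the member in the stretches.

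**Figure D5:**
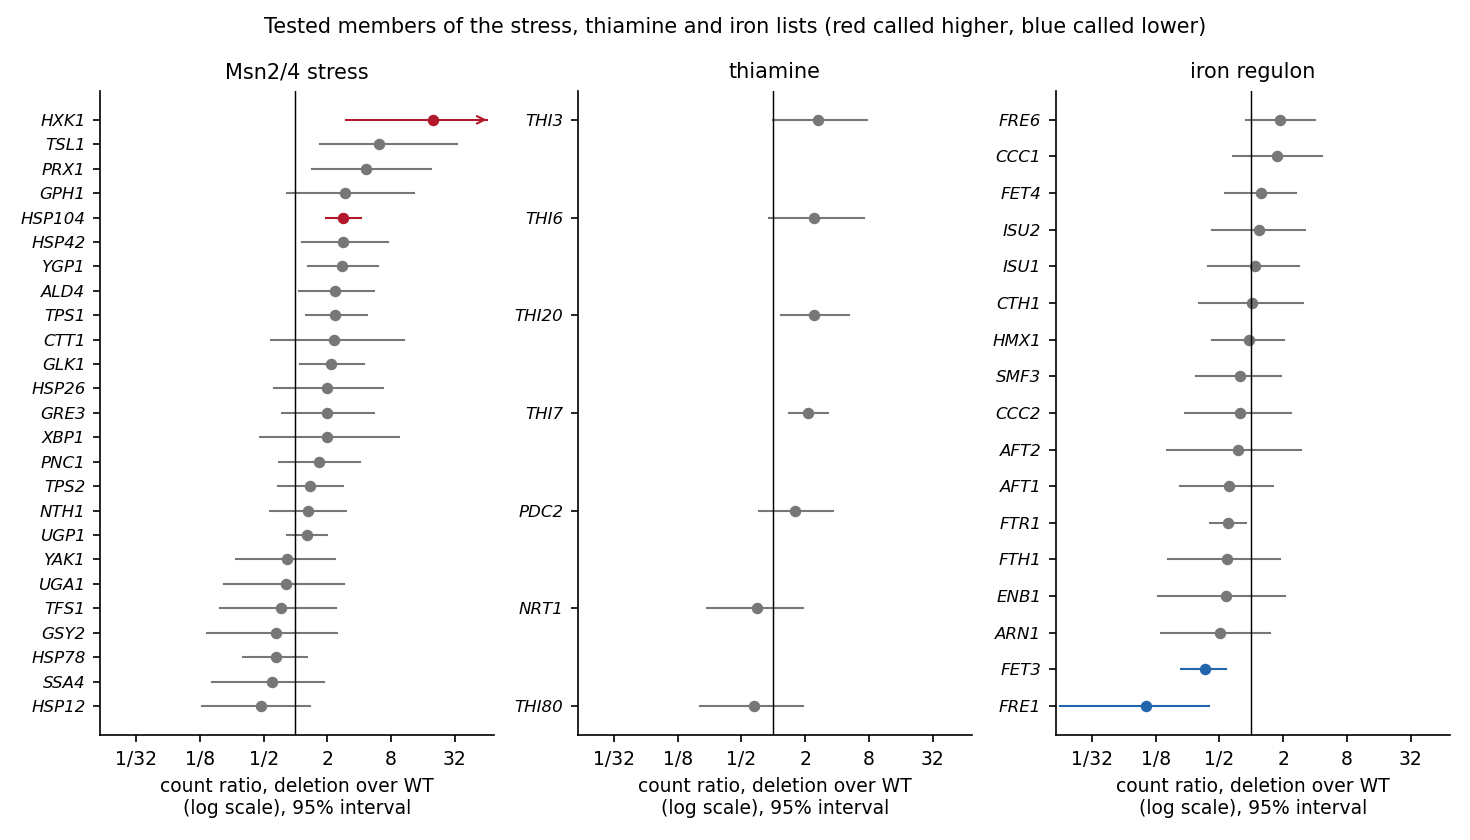
Count ratio of deletion over WT (log scale, exact 95% intervals as bars) for each tested member of the Msn2/4 stress list (left), the thiamine list (middle) and the iron regulon (right). HXK1 and HSP104 (red) were called higher and FET3 and FRE1 (blue) lower, while most other intervals include 1, and the arrow marks an interval that continues to 829.

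Biosynthetic lists were close to WT, with single exceptions. Amino acid genes under Gcn4 summed to 0.958 (interval 0.916 to 1.00) with 0 calls among 61 tested. Purine and one-carbon genes summed to 0.966 (0.914 to 1.02), with ADE1 as the 1 call among 25, and to 0.933 (0.881 to 0.987) without the 2 stretches, while M475R summed to 0.326 times the same WT. Pyrimidine genes summed to 0.839 (0.742 to 0.948), with URA3 as the 1 call among 12 and a median of 0.02. Sulfur and methionine genes summed to 1.00 (0.931 to 1.08), with or without the member in the stretches. Ergosterol genes summed to 0.952 (0.883 to 1.03) and fatty acid and phospholipid genes to 0.982 (0.928 to 1.04), the last with INO1 as the 1 call among 22.

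Drug resistance genes were slightly above WT in the deletion. The list summed to 1.23 times WT (interval 1.04 to 1.47), or 1.21 (1.00 to 1.45) without the member in the stretches, with 0 calls among 12 tested, 11 of which lay above WT, and M475R summed to 3.86 times the same WT. The drug pump gene PDR5 had 34 counts in the deletion library and 26 and 17 in WT (1.04, 0.642 to 1.67). Histone genes summed to 0.898 (0.802 to 1.01) with 0 calls among 10.

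Marker genes of cell type were compared as a check on the strains. Mating type a genes were read in every library used here: STE2, the alpha-factor receptor, had 47 counts in the deletion library, against 43 and 29, STE6 had 37, against 45 and 19, and BAR1 had 15, against 17 and 7. The a-factor genes MFA1 and MFA2 had 0 counts in these libraries. Genes of mating type alpha summed to 7 counts in the deletion library and 8 and 1 in WT, and sporulation genes to 5, against 6 and 2. Stationary phase genes summed to 19, against 10 and 4, with SNZ1 at 13, against 4 and 1 (ratio 3.41, interval 1.14 to 12.2, adjusted p = 0.573).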

How the data were processed

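RNA-seq of the 3 strains was deposited as pairwise tables, 4 of which were used here. Libraries were made from fragmented mRNA by cDNA synthesis, adapter ligation and PCR, per the labels' protocols. The submitters' processing notes list BWA and Bowtie with neither version nor role, while the counting tool, genome build and annotation are not given in the sources used here. Per the file headers, the authors gave each gene an expression value, here read as an expected count because up to 2.97% of the listed genes in a library had values that were not whole. The authors also deposited an FPKM per library, with 0 set to 0.001. Of the per-sample columns, 32 were not used, nor were the authors' ratios and FDR. Columns were assigned to samples by their names. A gene missing from a table was set to 0.

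After rounding to integers, expected counts were joined over 6032 genes, whose identifiers carry the strain name CEN.PK113-7D. Of these, 5515 matched the R64 gene table by locus tag, 517 did not, and 5034 had a symbol. R64 served only for names and gene order. No sequence or coordinate is printed, since the files' build is not known.

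Testing used edgeR 4.0.16 (R 4.3.3): TMM, a quasi-likelihood fit without robust estimation of all 5 libraries by strain, genes with at least 10 counts pooled over WT and deletion, and Benjamini-Hochberg adjustment over 3939 genes. The fit gave a common dispersion of 0.00106 (biological coefficient of variation, CV, 3.26%) on 2 residual and 28.9 prior degrees of freedom, and lends the lone deletion library the spread of the other strains. Each SE is the absolute log2 fold change divided by the square root of the F statistic of its test. It therefore rests on the same borrowed spread. Count ratios divide the pooled counts, each per TMM-scaled library size, and carry exact 95% conditional binomial intervals, and library levels have exact Poisson intervals. The M475R libraries held 4155210 and 71236 counts, differed by no more than sampling noise (chi-square 1.025 per degree of freedom, p = 0.168), and their pooled values mostly reflect replicate 1. On simulated data (4120 genes), the test recovered 86% of genes raised 4-fold and 16% raised 2-fold, 40% of genes lowered to 0.25 and 14% lowered to 0.5, and called 1 of 3940 unchanged genes. The simulation drew Poisson counts without further spread, and strains differed only at the changed genes. Its mean levels came from all libraries pooled and mostly reflect M475R replicate 1. It therefore does not show how the test behaves where libraries spread more.

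Genes named are the called ones, in each list up to 4 called members or else the one with the smallest adjusted p, ASK10, its partners and its 5 neighbours on either side. Further list members, neighbours of called genes and genes at chromosome ends were named after their values were seen. The comparison, the gene lists and the rule were chosen with earlier results of these data known. Lists overlap, and their sums cover all listed members. Alternatives were other scaling, other count minimums, DESeq2 1.42.0, an exact binomial test, fixed CVs, a replicate block and leaving out each library.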

Additional observations from a re-analysis of the deposited data

How the results depend on the processing

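The 12 calls (8 higher, 4 lower) depended strongly on how the spread was set. Without the M475R libraries there were 0 calls, 0 higher and 0 lower, where 1 residual and 2.58 prior degrees of freedom were left, and without either one of them likewise 0 (smallest adjusted p 0.872 and 0.875). Leaving out each library gave 0 to 11 calls, 0 to 8 higher and 0 to 4 lower. The DESeq2 Wald test gave 4 (2 and 2), scaling by total counts 7 (5 and 2), a CV fixed at 20% 3 (1 and 2, namely YBT1, RPL8A and URA3), edgeR's own filter 20 (14 and 6) and the exact binomial test 22 (16 and 6). DESeq2's size factors gave 9, minimums of 1 and 30 counts 17 and 15, robust estimation 13 and a CV of 10% 10. The replicate block gave 9, of which 4 were higher and 1, ZPS1, was not among the 12 (adjusted p = 5.57e-05), and the numbers did not pair the samples (correlation 0.00586 over 669 genes). Over these settings the called genes gave 190 values, with 0 reversed and 74 no longer called, and the cause of single losses was not tested. ASK10 was called with edgeR's own filter (adjusted p = 0.0397). That filter tested fewer genes and also gave infinite prior degrees of freedom, against 28.9 in the main fit. Which of these mattered was not tested. On the log2 scale SAG1 reversed to 0.56 with the block, RRP46 to 0.0262 without WT replicate 1 (range over left-out libraries -0.96 to 0.0262), and DRN1 and MDR1 to -0.321 and -0.184 without WT replicate 2 (ranges -0.321 to 1.12 and -0.184 to 2.5). A window of up to 40 genes took in all 36 listed genes of the right side of chromosome I, and their sum was 1.58 times WT. FPKM with a pseudocount of 1 or 10 kept the sign of all 12 called genes. Depth limits what can be called: of genes simulated 2-fold higher in the deletion with sampling noise alone, 16% were recovered.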

Other observations

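A few genes of other functions stood far from WT without passing the test, and were picked after their values were seen. SIW14, a phosphatase of inositol pyrophosphates, had 0 counts in the deletion library and 9 and 2 in WT (exact 95% interval of the ratio 0 to 0.523, adjusted p = 0.235 by edgeR's quasi-likelihood test with Benjamini-Hochberg adjustment). RIB3, of riboflavin synthesis, had 8 counts in the deletion library, against 23 and 9 (ratio 0.328, 0.131 to 0.727), and UBP1, a ubiquitin protease, had 13, against 26 and 17 (0.397, 0.196 to 0.752). The uncharacterised gene YOR387C had 25 counts in the deletion library and 43 and 24 in WT (0.490, 0.297 to 0.786), and stood at 0.0920 times the same WT sample in M475R. SEN34, a subunit of the tRNA splicing endonuclease that lies in the stretch of chromosome I described in the report, had 14 counts in the deletion library, against 2 and 0 (9.19, 2.11 to 83.3) on 2 WT counts.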
